A study of Mus musculus with 77 samples.

Results

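The genes described here are 10 mouse genes of the endoplasmic reticulum (ER) protein-folding machinery and the unfolded protein response (UPR), followed in liver at 2 times of day. They were chosen by name, Hspa5, Hsp90b1, Hyou1, Dnajb9, Sdf2l1, Pdia4, Calr, Creld2, Manf and Xbp1, as 10 of the 25266 genes listed, and 10 of 10 passed the filter on low counts that left 10696 genes to test. The study compared livers that lack an iron regulatory protein (IRP) with their controls by ribosome profiling. Each liver gave a total RNA library and a library of ribosome-protected fragments (RPFs), the pieces of mRNA that translating ribosomes shield from RNase I. Translational efficiency (TE) is the RPF/RNA ratio of a gene in a liver, given here as log2.

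The mice were healthy adult males of 12 to 24 weeks on a C57BL/6J background, all from 2 lines. The Aco1 line (labelled IRP1) held Aco1+/+ controls and Aco1-/- knockouts with the allele Aco1tm1.1Mwh. The Ireb2 line (labelled IRP2) held Ireb2+/+ controls and Ireb2-/- knockouts with the allele Ireb2tm1.2Mwh. Livers were taken at ZT5, which is 5 h after lights on, and at ZT12, when lights go off, from 3 mice of each genotype and timepoint, 24 mice in all. Each mouse was a separate sample. Aco1-/- livers still make transcript from the locus, so RPFs are the clearer check of the genotype. RPF levels of Aco1 were 347.1 to 591.3 normalised counts (CPM, scaled to a fixed library size) in Aco1+/+ and 74.8 to 123.2 CPM in Aco1-/- livers. RPF levels of Ireb2 were 62.3 to 81.4 CPM in Ireb2+/+ and 32.5 to 41.2 CPM in Ireb2-/- livers.

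Proteins that are secreted or sit in membranes fold in the ER, and hepatocytes, which make most plasma proteins, carry a large ER. HSPA5 (BiP) is the Hsp70 chaperone of the ER lumen, and its partners include HYOU1, which exchanges its nucleotide, and DNAJB9 (ERdj4), a J-domain protein. When unfolded proteins accumulate, the sensors IRE1, PERK and ATF6 start the UPR, in which IRE1 splices Xbp1 mRNA and the XBP1 and ATF6 transcription factors raise the chaperone genes.

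Many promoters of this class carry the ER stress response element (ERSE), CCAAT and CCACG with 9 bases between them. In GRCm38.p6 the genes that lead the results lie on separate chromosomes, Dnajb9 at chr12:44205897-44210068, Pdia4 at chr6:47796141-47813512, Calr at chr8:84842088-84846931, Hsp90b1 at chr10:86690841-86705444 and Sdf2l1 at chr16:17130138-17132383. RefSeq promoter windows (GRCm38.p6, 250 bases before to 50 after the annotated start) matched 8 of the 10 genes by symbol. The ERSE, searched with that spacing on both strands, was found in the windows of Hspa5, Hsp90b1, Calr and Creld2, 4 of 8, and in 0.137% of all 27025 genes with a window. The copies are shown because the text then sets these genes beside those without one. Each line gives the copy in the direction in which it reads, with CCAAT and CCACG in capitals.
Hspa5, chr2:34772020-34772049, plus strand: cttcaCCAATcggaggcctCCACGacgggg
Hsp90b1, chr10:86705632-86705661, minus strand: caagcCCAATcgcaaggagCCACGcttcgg
Hsp90b1, chr10:86705528-86705557, plus strand: actcaCCAATcgtgcctcaCCACGcactct
Calr, chr8:84847070-84847099, plus strand: atgggCCAATgagggtcgaCCACGcgttgt
Creld2, chr15:88819514-88819543, minus strand: gtggaCCAATtgaggctcgCCACGagaagc
The short box CCACG, which is also part of each ERSE above, was found in 7 of 8 windows, all but that of Xbp1, against 35.5% of all genes. Dnajb9 held no complete ERSE but 2 CCACG boxes, of which 1 overlaps an E-box (CACGTG). That stretch is shown because Dnajb9 changed in the opposite direction to the other genes that changed, with CCACG in capitals.
Dnajb9, chr12:44210166-44210181, minus strand: gttttCCACGtgcgcg
The E-box was found in Calr and Dnajb9, against 8.09% of all genes. The ERSE-II (ATTGG and CCACG with 1 base between them), the UPR element (TGACGTGG) and the C/EBP-ATF site (TTGCATCA) were found in 0 of 8 windows, against 0.0444%, 0.714% and 1.03% of all genes. A match to these letters is a description of the sequence only.

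The genes differed in the counts behind them. CDS counts per library ran from 852293 to 3993492 in RNA and from 2448915 to 13439600 in RPF libraries, and levels are given as CPM of these counts after upper-quartile scaling. Hspa5 and Hsp90b1 had at least 1224 and 1182 RNA counts in every liver, whereas Sdf2l1 had 18 to 116, Dnajb9 20 to 174, Manf 40 to 236 and Creld2 43 to 314. Together the 10 genes held a median of 0.396% of unscaled CDS counts in RNA at ZT5 and 0.352% at ZT12, and 0.549% and 0.452% of those in RPFs. Coding lengths were not used here, so levels are compared between livers and not between genes. In whole liver, fewer cells of a type and less RNA per cell cannot be told apart.

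Differences between whole libraries touch some of the values that follow. Markers of pancreatic acinar cells (Cpa1, Cela1, Prss2, Pnlip and Ctrb1, with Amy2a5 listed at 0 in all livers) summed to 8963 CPM in RNA of Ireb2+/+ ZT5 replicate 3 and 211.6 CPM in Ireb2-/- ZT12 replicate 1. In the other 22 livers this sum ran from 1.63 to 21.9 CPM, and RPFs of the same 2 livers held 16980 and 864 CPM of it against at most 12.7 CPM. The part of these cells in the results was not tested, and values that changed a call or moved by over 1.5 times without the 2 livers are given both ways for the averaged comparison and for the within-genotype changes quoted. The library numbers in the sample titles form a separate block for each line and timepoint, so an order effect and the timepoint cannot be told apart. Hepatocyte markers, 8 genes, summed to 101600 to 157700 CPM. The 8 Kupffer cell markers ran from 366 to 641 CPM, the 7 endothelial markers from 428 to 642 CPM and the 7 stellate cell markers from 373 to 605 CPM, with ranges that overlapped between timepoints. Of the markers tested in RNA in the averaged comparison, the hepatocyte genes Tat and Serpina1a were higher at ZT12 and Fgb was lower, and the endothelial gene Clec4g, the cholangiocyte gene Spp1 and the plasma cell gene Sdc1 were lower. The 7 plasma and B cell markers listed, whose cells also have a large ER, summed to 79.2 to 164 CPM at ZT5 and 79.3 to 142 CPM at ZT12, with Igkc and Ighm at 0. The 5 cholangiocyte markers had a median sum of 29.7 CPM at ZT5 and 14.7 CPM at ZT12, and the 1 T and NK cell marker listed, Trbc2, was at 0. The part of these cells in the results was not tested either.

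Averaged over the 4 genotypes, Dnajb9 RNA was higher at ZT12 than at ZT5, and RNA of 5 other genes, Pdia4, Calr, Hsp90b1, Sdf2l1 and Hyou1, was lower. Xbp1, Creld2, Hspa5 and Manf did not pass the test. The test was edgeR's quasi-likelihood test with Benjamini-Hochberg adjustment over all 10696 genes and a threshold of 0.05, in 12 livers against 12. In the same comparison 22.3% of all genes were called, 9.71% higher and 12.5% lower. The median log2 change of the 10 genes was -0.27, beside -0.04 over all genes tested.

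**Figure D1:**
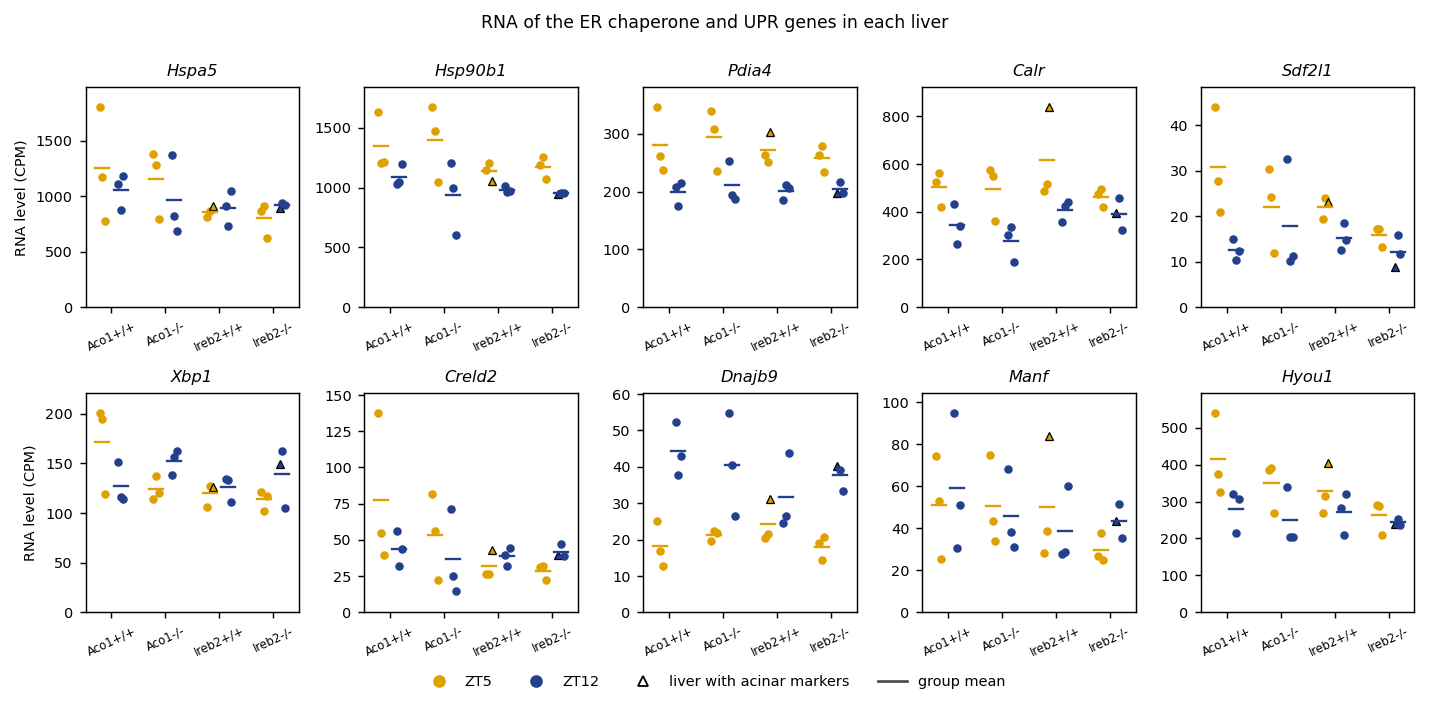
RNA level (CPM after upper-quartile scaling, linear axis from 0) of each of the 10 genes in each of 24 livers, by genotype, with ZT5 in yellow, ZT12 in blue and bars at the means of 3 livers. Triangles mark the 2 livers with pancreatic acinar markers. Dnajb9 points lie higher at ZT12 in Aco1+/+, Aco1-/- and Ireb2-/- livers without overlap, and the yellow Pdia4 points lie above the blue ones in 3 of the 4 genotypes.

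Dnajb9, the J-domain partner that also binds IRE1, was the gene that rose. In Aco1+/+ livers its RNA was 25.04, 16.8 and 12.7 CPM at ZT5 and 52.4, 37.8 and 43.1 CPM at ZT12. In Aco1-/- livers it was 19.8, 22.3 and 21.7 CPM at ZT5 and 54.9, 40.4 and 26.4 CPM at ZT12. In Ireb2-/- livers it was 19.2, 14.3 and 20.8 CPM at ZT5 and 40.3, 39.2 and 33.4 CPM at ZT12. In these 3 genotypes every ZT12 liver was above every ZT5 liver. In Ireb2+/+ livers the values were 20.4, 21.5 and 31.2 CPM at ZT5 and 24.6, 26.5 and 43.8 CPM at ZT12, and the liver with acinar markers, at 31.2 CPM, lay above 2 of the ZT12 livers. The averaged log2 change was 0.88 (SE 0.12, edgeR adjusted p = 8.67e-07), a rise of 83.6%. The change within genotypes was 1.26 (SE 0.23) in Aco1+/+, 0.84 (SE 0.23) in Aco1-/- and 1.05 (SE 0.22) in Ireb2-/- livers, with edgeR adjusted p of 5.46e-04, 0.0246 and 0.0062. In Ireb2+/+ livers it was 0.36 (SE 0.22, edgeR adjusted p = 0.471), and 0.55 (SE 0.23, edgeR adjusted p = 0.259) without the 2 livers. The difference between Ireb2-/- and Ireb2+/+ in this change was 0.68 (SE 0.31, edgeR adjusted p = 0.981), and 0.44 (SE 0.32) without the 2 livers, so the change was not shown to differ between these genotypes.

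Pdia4 (ERp72), a disulphide isomerase of the ER lumen, had the smallest error of the genes that fell. Its RNA in Aco1+/+ livers was 346, 261 and 236 CPM at ZT5 and 208, 175 and 215 CPM at ZT12. In Aco1-/- livers it was 340, 307 and 236 CPM at ZT5 and 252, 193 and 187 CPM at ZT12. The timepoints did not overlap in Aco1+/+ livers, and in Aco1-/- livers the highest ZT12 liver lay above the lowest ZT5 liver. In Ireb2+/+ livers it was 263, 251 and 304 CPM at ZT5 and 185, 211 and 206 CPM at ZT12, and in Ireb2-/- livers 264, 278 and 234 CPM against 198, 216 and 198 CPM. The averaged log2 change was -0.44 (SE 0.07, edgeR adjusted p = 1.15e-05), and the 4 within-genotype changes lay between -0.50 and -0.34. None of the 4 passed the threshold alone, with edgeR adjusted p from 0.0526 to 0.165.

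Calr (calreticulin), the soluble calcium-binding lectin chaperone of glycoproteins, fell in RNA by 0.56 on the log2 scale (SE 0.12, edgeR adjusted p = 0.00235). Its level was 524, 561 and 421 CPM at ZT5 and 431, 265 and 339 CPM at ZT12 in Aco1+/+ livers, and 576, 550 and 361 CPM against 301, 338 and 188 CPM in Aco1-/- livers. In Ireb2+/+ livers it was 489, 519 and 838 CPM at ZT5 and 357, 426 and 443 CPM at ZT12, and the 838 CPM came from the liver with acinar markers. In Ireb2-/- livers it was 476, 495 and 419 CPM against 397, 457 and 323 CPM. The ZT12 livers lay below all ZT5 livers in Aco1-/- and Ireb2+/+ and overlapped with them in the other two genotypes. Without the 2 livers with acinar markers the averaged change was -0.49 (SE 0.12, edgeR adjusted p = 0.0047).

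Hsp90b1 (GRP94), the Hsp90 chaperone of the ER, had RNA levels of 1046 to 1672 CPM (median 1205) in the 12 ZT5 livers and 602 to 1202 CPM (median 985) in the 12 ZT12 livers. Its averaged log2 change was -0.35 (SE 0.09, edgeR adjusted p = 0.00276). The groups did not overlap in Aco1+/+, Ireb2+/+ and Ireb2-/- livers. The lowest ZT5 livers held 1201.9, 1054 and 1070 CPM and the highest ZT12 livers 1201.6, 1012 and 955 CPM, so in Aco1+/+ livers the groups all but met. Sdf2l1, a small protein that works in complex with BiP and a J-domain partner, had 11.9 to 43.9 CPM (median 22.0) at ZT5 and 8.73 to 32.6 CPM (median 12.4) at ZT12. Its averaged change was -0.69 (SE 0.19, edgeR adjusted p = 0.0102), and the 32.6 CPM came from Aco1-/- ZT12 replicate 1, where the other 2 livers held 10.1 and 11.2 CPM.

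Hyou1 (GRP170), the large Hsp70-like exchange factor of BiP, had 208 to 541 CPM (median 320) at ZT5 and 204 to 340 CPM (median 247) at ZT12. Its averaged change of -0.37 (SE 0.12, edgeR adjusted p = 0.0344) was, of the 11 averaged calls in RNA and RPFs, the only one that ended with a mouse left out. It was lost when any of 12 of the 24 mice was left out (Aco1+/+ ZT5 replicate 1 and ZT12 replicate 2, Aco1-/- ZT5 replicates 1 and 2 and ZT12 replicates 2 and 3, Ireb2+/+ ZT5 replicate 3 and ZT12 replicate 2, Ireb2-/- ZT5 replicates 1 and 2 and ZT12 replicates 1 and 3). The edgeR adjusted p then ran from 0.0529 to 0.068, with changes of -0.36 to -0.31. It was also lost without the 2 livers with acinar markers (-0.32, SE 0.13, edgeR adjusted p = 0.0947).

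The other 4 genes did not pass the test in RNA. Hspa5 (BiP) ran from 628 to 1801 CPM (median 885) at ZT5 and from 684 to 1374 CPM (median 914) at ZT12, with an averaged log2 change of -0.06 and an approximate 95% interval of -0.35 to 0.22. Xbp1, the transcription factor, ran from 102.5 to 201.2 CPM and from 104.8 to 162.3 CPM, with a change of 0.06 (-0.10 to 0.22). Gene counts cannot tell its spliced from its unspliced mRNA. Creld2, an ER protein with EGF-like repeats, ran from 22.3 to 138 CPM and from 14.7 to 71.2 CPM, and its change of -0.19 had the widest interval, -0.73 to 0.35. Manf, a small protein held in the ER by BiP and also secreted, ran from 24.95 to 83.7 CPM and from 27.6 to 95.04 CPM, with a change of 0.03 (-0.48 to 0.53). The 83.7 CPM came from the liver with acinar markers, and the change without the 2 livers was 0.17 (SE 0.27).

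Of the 4 genes with an ERSE in their window, Hsp90b1 and Calr were lower at ZT12 and Hspa5 and Creld2 did not pass the test. Of the 4 with a window but no ERSE, Pdia4 and Sdf2l1 were lower, Dnajb9 was higher and Xbp1 did not pass.

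Footprints gave the same set of calls but for Hyou1. In RPFs, Dnajb9 was higher at ZT12 and Calr, Hsp90b1, Pdia4 and Sdf2l1 were lower, 5 of 10 genes, against 31.8% of all genes in this comparison, 13.6% higher and 18.2% lower. Dnajb9 RPFs ran from 24.95 to 52.7 CPM (median 31.1) at ZT5 and from 38.7 to 67.2 CPM (median 51.8) at ZT12, a log2 change of 0.73 (SE 0.11). The 52.7 CPM came from the Ireb2+/+ liver with acinar markers, and the highest of the other ZT5 livers held 35.1 CPM. Calr RPFs ran from 1489 to 2340 CPM (median 1794) and from 847 to 1652 CPM (median 1342), a change of -0.56 (SE 0.07, edgeR adjusted p = 4.25e-07). This was the smallest adjusted p of the 10 genes in RPFs.

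Sdf2l1 showed the largest fall in RPFs, by 0.96 on the log2 scale (SE 0.20, edgeR adjusted p = 0.0013). It held 93.4, 73.5 and 36.8 CPM at ZT5 and 24.7, 18.8 and 23.4 CPM at ZT12 in Aco1+/+ livers, and 74.1, 49.6 and 25.3 CPM against 31.2, 12.1 and 13.2 CPM in Aco1-/- livers. In Ireb2+/+ livers it held 23.6, 29.9 and 32.8 CPM against 18.7, 28.4 and 17.0 CPM, and in Ireb2-/- livers 26.6, 28.4 and 23.8 CPM against 16.7, 25.7 and 20.0 CPM. The high ZT5 livers were thus those of the Aco1 line, and the groups did not overlap in Aco1+/+ livers. Pdia4 RPFs fell by 0.44 on the log2 scale (SE 0.09, edgeR adjusted p = 4.64e-04) and Hsp90b1 RPFs by 0.34 (SE 0.07, edgeR adjusted p = 4.19e-04). Hyou1 RPFs had a change of -0.25 (SE 0.11, edgeR adjusted p = 0.0873).

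**Figure D2:**
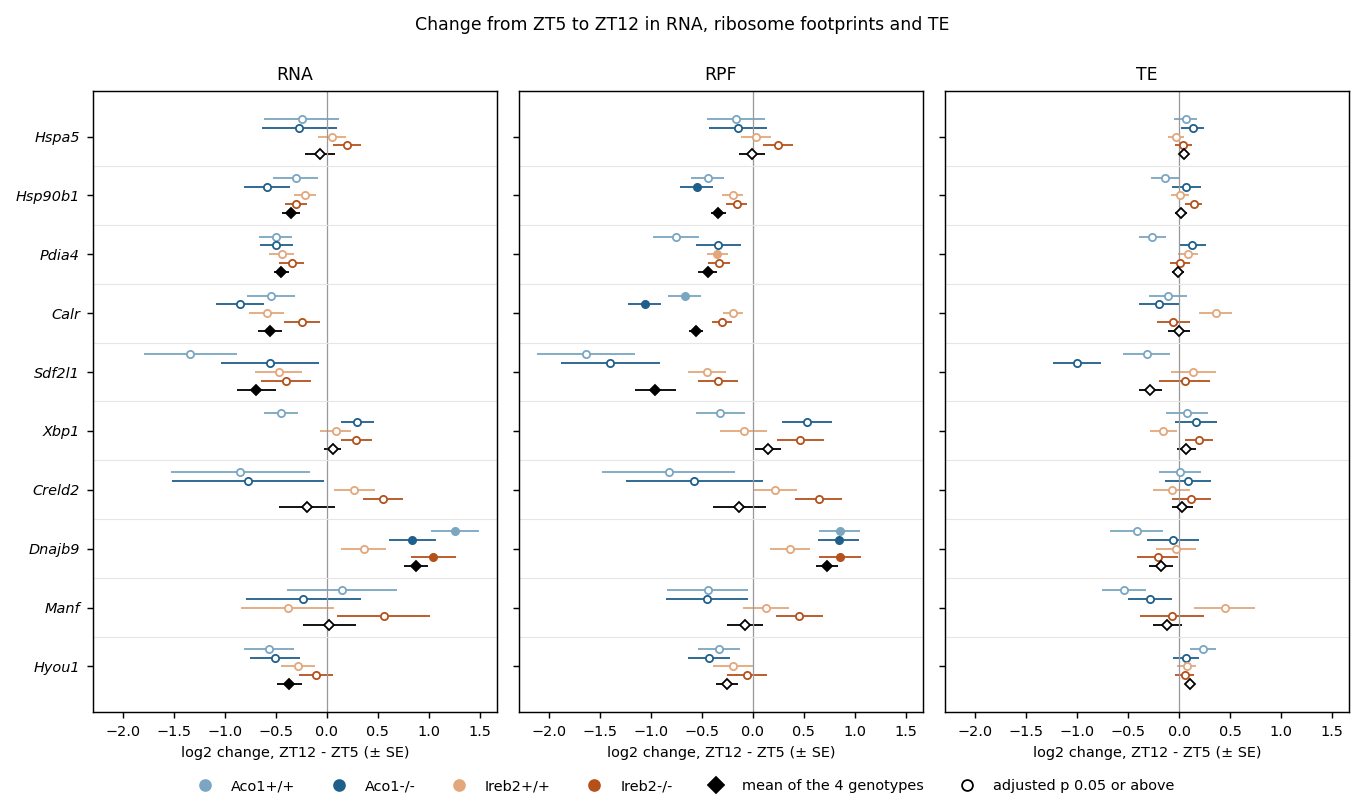
Log2 change from ZT5 to ZT12 (± SE of the edgeR fit) of each gene in RNA, RPF and TE, within each genotype (circles, 3 livers against 3) and as the mean of the 4 genotypes (diamonds, 12 against 12). Filled marks passed an adjusted p of 0.05. Filled diamonds stand at 6 genes in RNA, at 5 in RPF and at 0 in TE.

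Within a genotype, with 3 livers against 3, the number of genes that passed depended on the fit. Without regard to a test, the RNA values of the timepoints did not overlap for 5 of 10 genes in Aco1+/+, 3 in Aco1-/-, 4 in Ireb2+/+ and 4 in Ireb2-/- livers, against 26.0%, 21.1%, 19.1% and 21.9% of all genes. The RPF values did not overlap for 5, 2, 2 and 5 genes in the same order, against 27.1%, 27.2%, 27.1% and 23.7% of all genes. In RNA, Dnajb9 was called in Aco1+/+, Aco1-/- and Ireb2-/- livers, 1 of 10 genes each, against 7.05%, 5.15% and 2.77% of all genes. These counts became 4, 2 and 1 when only the mice compared were fitted, against 9.87%, 3.66% and 4.25% of all genes, and 5, 4 and 1 with the replicate number as a block, against 6.99%, 5% and 2.76%. The call in Aco1-/- livers was lost when any of 5 of the 6 mice compared was left out (all but ZT12 replicate 3), with edgeR adjusted p from 0.0547 to 0.103, and that in Ireb2-/- livers without ZT5 replicate 2 or ZT12 replicate 1. In Ireb2+/+ livers 0 of 10 passed edgeR's test, against 2.29% of all genes, with 2 at an unadjusted p under 0.05 and 1 called by DESeq2, which called 4.93% of the genes it gave an adjusted p. In RPFs, Dnajb9 rose in Aco1+/+ (0.85, SE 0.20), Aco1-/- (0.84, SE 0.20) and Ireb2-/- livers (0.86, SE 0.21), with edgeR adjusted p of 0.0145, 0.011 and 0.024. The Ireb2-/- call was lost without any of 5 of the 6 mice (all but ZT5 replicate 3), and those in Aco1+/+ and Aco1-/- livers without either of 2 mice each. Calr RPFs fell in Aco1+/+ livers by 0.67 on the log2 scale (SE 0.16, edgeR adjusted p = 0.018) and in Aco1-/- livers by 1.06 (SE 0.17, edgeR adjusted p = 6.08e-04). Hsp90b1 RPFs fell in Aco1-/- livers by 0.55 (SE 0.16, edgeR adjusted p = 0.0339), and Pdia4 RPFs fell in Ireb2+/+ livers by 0.35 (SE 0.11, edgeR adjusted p = 0.0478). The genes called in RPFs were thus 2 of 10 in Aco1+/+, 3 in Aco1-/-, 1 in Ireb2+/+ and 1 in Ireb2-/- livers, against 6.64%, 12.1%, 7.53% and 5.73% of all genes. With only the mice compared they were 5, 2, 0 and 2, against 9.6%, 7.82%, 6.58% and 5.4%. With a mouse left out, the calls of Calr in Aco1+/+, Hsp90b1 in Aco1-/- and Pdia4 in Ireb2+/+ livers were also lost, for 4, 4 and 9 mice of the line, while that of Calr in Aco1-/- livers was not. Without the 2 livers with acinar markers, Dnajb9 RPFs passed in Ireb2+/+ livers as well (0.64, SE 0.18, edgeR adjusted p = 0.0392), and Pdia4 did not (-0.35, SE 0.12, edgeR adjusted p = 0.0994).

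Hsp90b1, Pdia4, Calr, Sdf2l1 and Hyou1 had a log2 change below 0 in 4 of 4 genotypes in RNA and in RPFs. They are the genes called lower on the average of these genotypes in RNA, which favours a shared sign. Without the 2 livers with acinar markers the RPF changes of Hyou1 were near 0, at -0.043 (SE 0.21) in Ireb2+/+ and -0.0097 (SE 0.22) in Ireb2-/- livers. Its RNA changes were then -0.11 (SE 0.17) and -0.095 (SE 0.17) in the same order. The RNA change of Sdf2l1 in Ireb2-/- livers was then -0.17 (SE 0.26). These changes were smaller than their SE. Creld2 had changes of -0.85 and -0.77 in RNA of Aco1+/+ and Aco1-/- livers and of 0.27 and 0.55 in Ireb2+/+ and Ireb2-/- livers, none of which passed the test, and this difference between lines was not tested. The Ireb2+/+ liver with acinar markers held 43.3 CPM at ZT5, beside 26.5 and 26.4 CPM, and without the 2 livers the Ireb2+/+ change was 0.51 (SE 0.20, edgeR adjusted p = 0.198). Xbp1 had a change of -0.45 (SE 0.16) in Aco1+/+ and of 0.30 (SE 0.17) in Aco1-/- livers. The test of that difference gave 0.75 (SE 0.23, edgeR adjusted p = 0.836), which did not pass.

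TE of the 10 genes gave no call between timepoints. In the averaged comparison edgeR called 0 of 10, against 0.486% of all genes, with 1 at an unadjusted p under 0.05, and DESeq2 and limma called 0 as well. Within Aco1+/+, Aco1-/-, Ireb2+/+ and Ireb2-/- livers edgeR also called 0 of 10, against 0.0187%, 0.15%, 0.533% and 0.00935% of all genes. At an unadjusted p under 0.05 there were 1, 1, 0 and 0 genes, and DESeq2 and limma called 0. The median log2 change in TE of the 10 genes was 0.01, as over all genes tested (0.01). The intervals bound the averaged changes. For Hspa5 the TE change was 0.05 (approximate 95% interval -0.04 to 0.15), for Pdia4 -0.01 (-0.12 to 0.10) and for Hsp90b1 0.02 (-0.10 to 0.14), whereas for Manf it was -0.11 (-0.40 to 0.17). Without the 2 livers with acinar markers the change of Manf was -0.22 (SE 0.12, edgeR adjusted p = 0.615), and Pdia4, Hsp90b1 and Calr were at -0.02, 0.04 and -0.06. Dnajb9 had a TE change of -0.18 (-0.41 to 0.06), and Calr of 0.00 (-0.21 to 0.21).

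**Figure D3:**
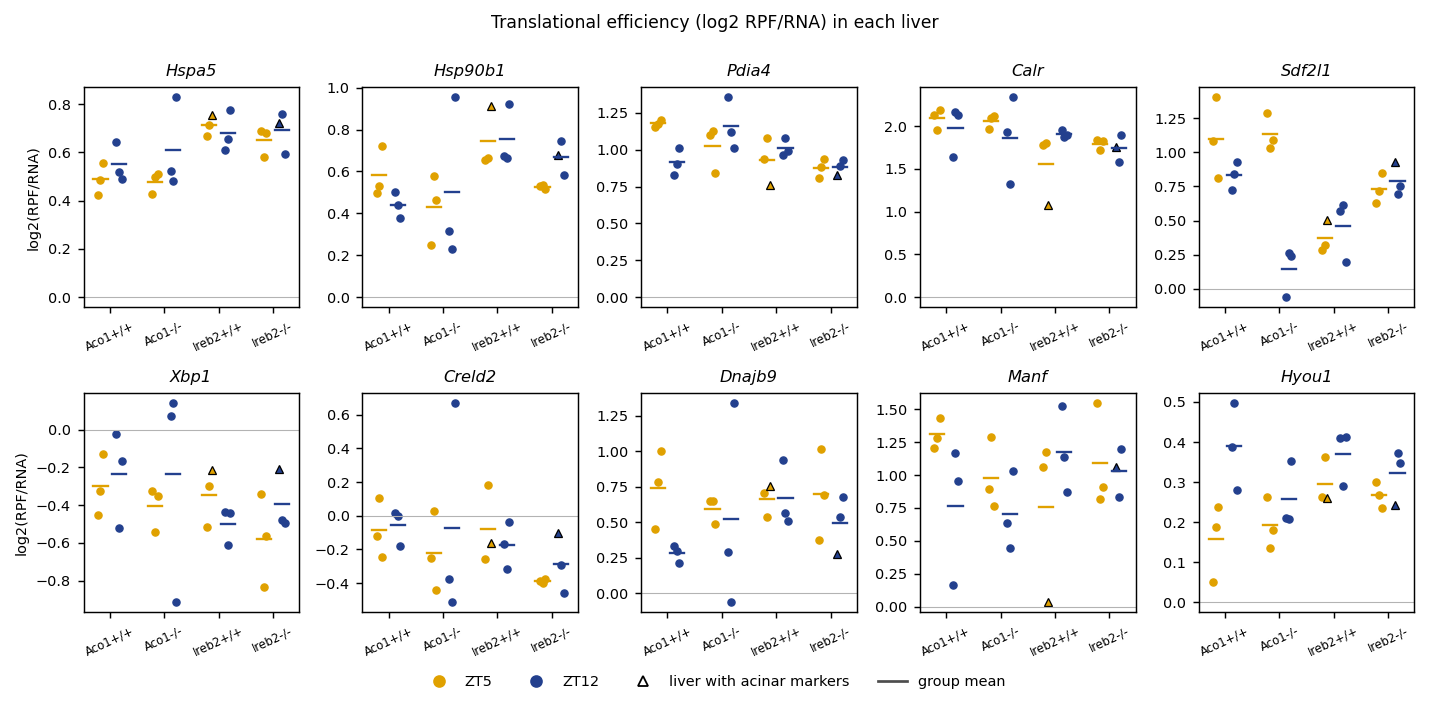
Log2 TE (log2 RPF/RNA) of each gene in each of 24 livers, by genotype, with ZT5 in yellow, ZT12 in blue and bars at the means of 3 livers. The vertical scale differs between panels. Triangles mark the 2 livers with acinar markers, of which the Ireb2+/+ ZT5 liver is the lowest point for Calr (1.08) and Manf (0.03), and Sdf2l1 in Aco1-/- livers lies between 1.03 and 1.29 at ZT5 and between -0.06 and 0.26 at ZT12.

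Sdf2l1 came nearest to a change in TE. In Aco1-/- livers its log2 TE was 1.29, 1.03 and 1.09 at ZT5 and -0.06, 0.26 and 0.24 at ZT12, and the groups did not overlap. The log2 change was -1.001 (SE 0.24, edgeR adjusted p = 0.0753), in a comparison that called 0.15% of all genes. It passed when Aco1-/- ZT12 replicate 3 was left out (-1.05, edgeR adjusted p = 0.041), and rests on RNA counts of 32 to 116 per liver. In Aco1+/+ livers the values were 1.09, 1.40 and 0.81 against 0.72, 0.84 and 0.93. In Ireb2+/+ livers they were 0.29, 0.32 and 0.51 against 0.57, 0.61 and 0.20, and in Ireb2-/- livers 0.63, 0.72 and 0.85 against 0.93, 0.70 and 0.75. The averaged change over the 4 genotypes was -0.29 (SE 0.11, edgeR adjusted p = 0.353).

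TE of Hyou1, Hspa5 and Pdia4 varied little from liver to liver. The SD of log2 TE within groups was 0.08 for Hyou1, 0.09 for Hspa5 and 0.11 for Pdia4, which places them at the 0.14th, 0.74th and 1.78th percentile of all genes (median SD 0.37). Their median RNA levels lay at the 96.6th, 99th and 95.9th percentile, so most of the genes they were set against had fewer counts. How counts bear on these percentiles was not tested. Over the same livers the within-group SD of log2 RNA was 0.31 for Hyou1, 0.36 for Hspa5 and 0.19 for Pdia4, at the 46.8th, 55.5th and 14.7th percentile. RNA and RPFs of Hyou1 and Hspa5 moved together between livers of a group. The liver with the most acinar RNA stood apart, with a log2 TE of Calr of 1.08 beside 1.78 and 1.81 in its group, and of Manf of 0.03 beside 1.06 and 1.17. Aco1-/- ZT12 replicate 3 also stood apart in TE, with an acinar marker sum in the range of the other livers. Its log2 TE was 1.34 for Dnajb9 (0.29 and -0.06 in the other 2 livers), 0.67 for Creld2 (-0.38 and -0.51), 0.95 for Hsp90b1 (0.32 and 0.23) and 0.83 for Hspa5 (0.52 and 0.48), and it was lower, at -0.92, for Xbp1 (0.07 and 0.14). Without this mouse the averaged TE change of Dnajb9 was -0.29 (edgeR adjusted p = 0.166), that of Hspa5 0.02, that of Hsp90b1 -0.04 and that of Xbp1 0.16, and edgeR still called 0 of 10 genes.

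**Figure D4:**
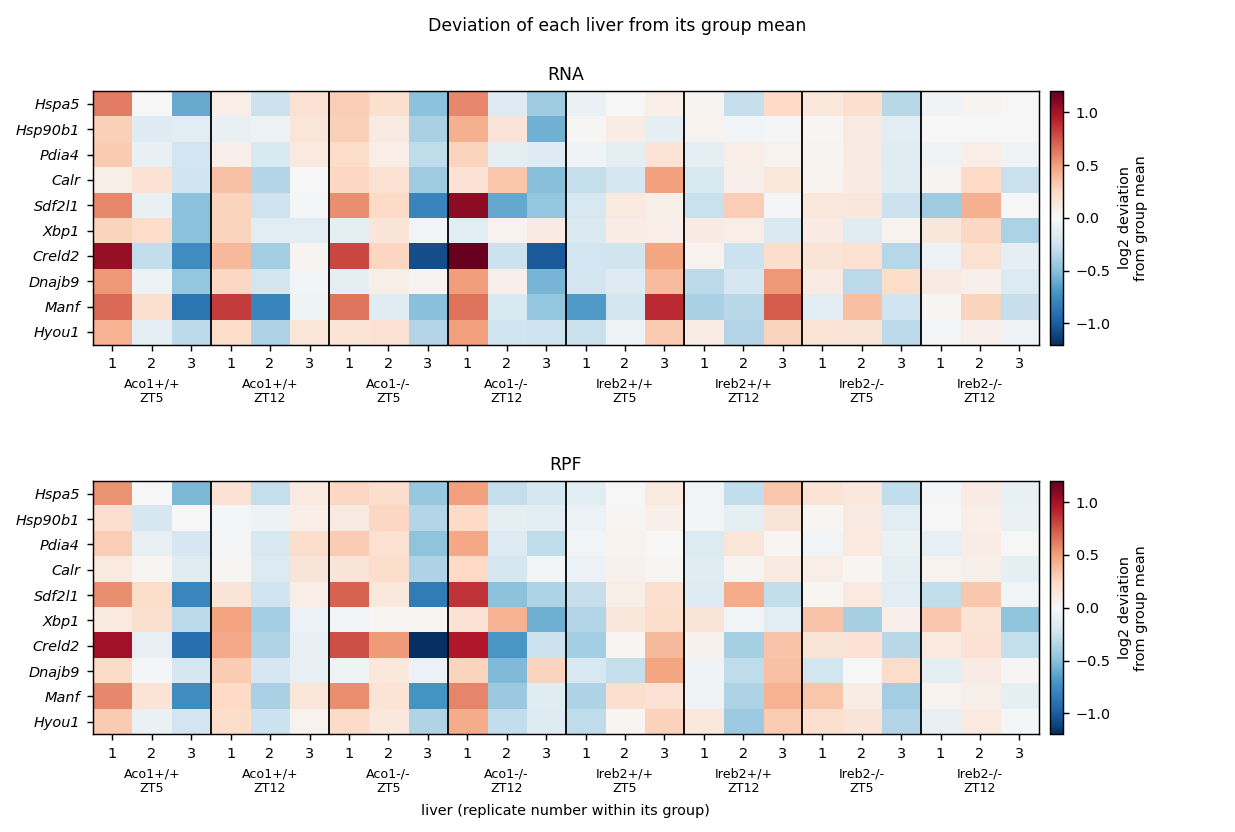
Deviation of each liver from the mean of its group of 3 (log2 CPM, red above and blue below, colours full at 1.2) for each gene in RNA (top) and RPF (bottom). Columns of a single colour, such as Aco1+/+ ZT5 replicates 1 and 3, show that most of the genes were high or low together in the same liver.

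Livers of a group differed in most of the 10 genes at once. Ranks were taken for these genes only, so a shift of the whole library was not separated from them. In Aco1+/+ livers at ZT5, replicate 1 held the highest RNA of 3 for 9 of 10 genes and replicate 3 the lowest for 9, among them Hspa5 at 1801, 1175 and 776 CPM and Creld2 at 138, 54.7 and 39.9 CPM. In RPFs replicate 1 was likewise highest for 9 genes and replicate 3 lowest for 9. Replicate 1 was also highest in RNA for 7 genes in Aco1-/- livers at ZT5. At ZT12 replicate 1 was highest in RNA for 7 genes in Aco1+/+ and 8 in Aco1-/- livers. In the Ireb2 groups it was highest in RNA for 0 to 2 genes. In Aco1-/- livers, RNA of replicate 3 was lowest for 8 genes at both ZT5 and ZT12. Its RPFs were lowest for 9 genes at ZT5 but for 3 at ZT12, where replicate 2 was lowest for 7. In Ireb2-/- livers at ZT12, replicate 2 was highest for 8 genes, with Hspa5 at 890, 938 and 921 CPM. The share of a library's counts in a column of the files whose content is not identified also differed between these livers. In RNA it was 16.6%, 12.8% and 9.05% in Aco1+/+, 22.9%, 12.2% and 10.4% in Aco1-/- and 17.3%, 13.1% and 10.7% in Ireb2-/- ZT5 replicates 1 to 3, and 12.7%, 12.5% and 11.9% in those of Ireb2+/+. In ZT12 replicates 1 to 3 it was 9.44%, 9.75% and 9.77% in Aco1+/+ and 12.7%, 8.51% and 12.9% in Aco1-/- livers. In those of the Ireb2 line it was 8.47%, 7.98% and 9.65% in Ireb2+/+ and 7.76%, 7.99% and 12.5% in Ireb2-/- livers. Over 12 livers it ran from 9.05% to 22.9% (median 12.6%) at ZT5 and from 7.76% to 12.9% (median 9.54%) at ZT12. That column is not part of the CDS counts, and its part in the results was not tested. Creld2 had the largest spread within groups, an SD of 0.67 in log2 RNA, and Pdia4 the smallest, 0.19, beside a median of 0.33 over all genes.

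The genes whose RNA profile over the 24 livers was most like the mean profile of the 10 were Pdia3, Gadd45gip1, Snrnp40, Ubxn4 and Tmed9. Likeness was the root-mean-square difference of centred log2 CPM, which was 0.191 for Pdia3 and 0.202 for Tmed9, beside a median of 0.471 over all genes. Among the 10 themselves, Hspa5 (0.148) and Hyou1 (0.164) were nearest to that mean and Dnajb9 (0.601) was farthest.

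None of the 10 genes passed the threshold between the genotypes of either IRP. The comparisons of Aco1-/- with Aco1+/+ and of Ireb2-/- with Ireb2+/+ at each timepoint, and the differences between genotypes in the change with time, gave 18 comparisons over RNA, RPF and TE. edgeR called 0 of 180 gene tests, with 13 (7.22%) at an unadjusted p under 0.05, beside 5.61% of the tests of all genes, and between 0% and 0.299% of all genes were called in these comparisons. Between genotypes these shares in RNA were 0.00935% at ZT12 and 0% at ZT5 in the Aco1 line, and 0.0187% and 0.00935% in the Ireb2 line. In RPFs they were 0.299% and 0.00935% in the Aco1 line and 0.028% and 0.0654% in the Ireb2 line, and in TE 0.0935% and 0.00935% against 0% and 0.00935%. For the differences in the change with time they were 0% in 5 of 6 comparisons and 0.028% for TE in the Aco1 line. DESeq2 and, for TE, limma called 0 as well. The smallest edgeR adjusted p was 0.279, for Calr RPFs in the Aco1 line at ZT12. These were 1345, 1190 and 1483 CPM in Aco1+/+ and 1148, 847 and 950 CPM in Aco1-/- livers, without overlap, with a log2 difference of -0.45 (SE 0.16). Knockout and control values overlapped for most of the 10 genes. In RNA, 0 genes had non-overlapping values between Aco1-/- and Aco1+/+ livers, against 9.4% of all genes at ZT5 and 11.6% at ZT12. Between Ireb2-/- and Ireb2+/+ livers 1 gene did in each case, against 11.6% at ZT5 and 9.77% at ZT12. In RPFs 1 gene had non-overlapping values between the Aco1 genotypes at either timepoint, against 7.62% of all genes at ZT5 and 20.4% at ZT12. Between the Ireb2 genotypes the count was 0 at ZT5, against 15.9%, and 1 at ZT12, against 10.6%. A p above the threshold does not show that the genotypes were alike. For Hspa5 RNA in the Aco1 line at ZT12 the difference was -0.14, with an approximate 95% interval of -0.87 to 0.58. For Creld2 in the same comparison it was -0.50 (-1.97 to 0.98).

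The 5′ UTR column of the files gave a readout that the choice of genes did not use. For Dnajb9, 22.2% of its RNA counts in the 5′ UTR and CDS columns and 5.73% of its RPF counts fell in the 5′ UTR column. The ratio of 5′ UTR to CDS counts in RPFs, divided by that in RNA, was 0.213 for Dnajb9, 0.201 for Xbp1, 0.148 for Hspa5 and 0.057 for Calr. Hyou1 (0.581) and Hsp90b1 (0.577) were the 2 genes of the 10 above the median of 6203 genes with at least 50 counts, 0.363. The other 8 lay below it. What the column holds was read from the values and is not given in the sources used here.

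Genes next to these in the pathway were called in both directions between ZT5 and ZT12. Over all genes tested, 9.71% were called higher and 12.5% lower in RNA. Among 11 other ER chaperones and co-chaperones, 0 were higher and 1 was lower in RNA, Cnpy2, from a median of 72.9 to 58.2 CPM. Among 18 disulphide and proline isomerases, 4 were higher and 3 were lower. Txndc11 rose from a median of 32.3 to 47.4 CPM and Txndc5 from 106.4 to 124.5 CPM, while Pdia6 fell from 272 to 210 CPM and the proline isomerase Fkbp2 from 48.4 to 39.9 CPM. Of 14 genes of glycan processing, 1 was higher, Lman1, a cargo receptor (log2 change 0.23, edgeR adjusted p = 0.00961), and 0 were lower. Of 16 genes of the translocon and signal peptidase, 2 were higher, Sec61a1 (0.25) and Tram1 (0.18), and 0 were lower.

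Herpud1 was the gene of the ER lists outside the PERK arm with the largest change among those named here. Of the 16 genes of ER-associated degradation, 3 were higher and 0 were lower in RNA, against 9.71% and 12.5% of all genes. Herpud1, a membrane protein of the degradation complex, rose from 116 to 237 CPM (median 163) at ZT5 to 296 to 629 CPM (median 351) at ZT12, without overlap over 24 livers. Its log2 change was 1.17 (SE 0.12, edgeR adjusted p = 9.04e-07), and that in RPFs was 1.23. Edem3, a mannosidase of the same route, rose by 0.36 on the log2 scale. Of 10 UPR sensors and ER stress transcription factors, 3 were higher and 0 were lower, among them Eif2ak3, which encodes PERK (0.55, SE 0.11), and Atf6 (0.27, SE 0.08).

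The PERK arm went both ways, with 2 of 9 tested genes higher and 2 lower, against 9.71% and 12.5% of all genes in RNA. Atf5 fell from a median of 90.5 to 36.4 CPM and Trib3 from 4.39 to 2.13 CPM, and Ppp1r15b, a subunit of the phosphatase that acts on eIF2α, rose from 91.3 to 126 CPM. Chac1 rose from a median of 0.358 to 2.01 CPM, which is few counts. Outside the ER, 4 of 13 cytosolic heat shock genes were higher and 0 were lower in RNA, with Hspa8 from 46.9 to 102 CPM and Dnaja1 from 10.97 to 16.2 CPM. Hspa8 may share reads with near-identical copies and its level is uncertain. As a check of the timepoint, 10 of 14 clock genes were called in RNA, 6 higher and 4 lower, with Ciart from 0.775 to 6.52 CPM and Arntl from 6.95 to 1.60 CPM.

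**Figure D5:**
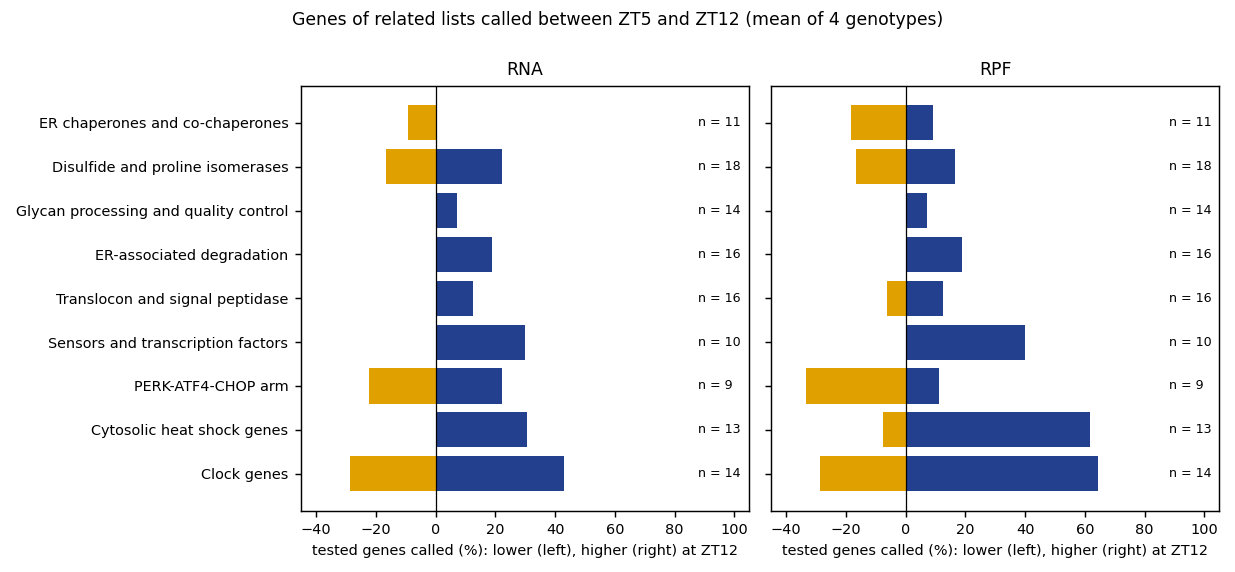
Share of the tested genes of each list that were called lower (left, yellow) or higher (right, blue) at ZT12 in RNA and in RPF, as the mean of the 4 genotypes, with the number tested. The background over all genes was 12.5% lower and 9.71% higher in RNA, and 18.2% lower and 13.6% higher in RPF. Degradation and sensor genes were called higher and not lower, while the PERK arm and the isomerases held both.

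In RPFs the lists gave 1 higher and 2 lower ER chaperones, 3 and 3 isomerases, 1 and 0 genes of glycan processing, 3 and 0 of degradation, 2 and 1 of the translocon, 4 and 0 sensors, 1 and 3 of the PERK arm, and 8 and 1 cytosolic heat shock genes. Over all genes, 13.6% were higher and 18.2% lower in RPFs, and 0.486% were called in TE. In TE, 1 gene of the PERK arm, Atf4, was lower and 1 heat shock gene, Hsp90ab1, was higher, both named here after their values were seen, and the other lists held 0 called genes in each direction. Read against the background, the heat shock genes had a median log2 RPF change of 0.55 and the 10 genes described here one of -0.19, beside -0.04 over all genes tested.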

How the data were processed

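Liver RNA and ribosome footprints were profiled in 24 mice, giving 48 libraries in 77 sequencing runs. The authors trimmed reads with cutadapt (3.5), removed rRNA and tRNA reads with bowtie2 and aligned with STAR (2.70f); the counting tool and its use of strand are not given in the sources used here. They deposited whole-number counts per gene and run in 5 columns without a header. The third file column was read as CDS from its values, and runs of a library were summed.

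Genes were kept by filterByExpr (minimum count 10, total 15). Counts were scaled by the upper quartile and tested with edgeR (4.0.16) quasi-likelihood fits (robust) in R (4.3.3), with Benjamini-Hochberg adjustment at 0.05. Each line was fitted with its 4 groups, and the average over genotypes with all 24 mice. TE was tested in the same kind of model over both library types, with a term for each mouse and an interaction of library type with group. TE per liver used a prior count of 0.5. SEs were taken from the log2 change and its F statistic, and approximate 95% intervals are 1.96 SE to either side. DESeq2 (1.42.0) and limma (3.58.1) were alternatives, beside another normalisation, no filter, all columns, the first run alone, a replicate block and each mouse left out. The scripts were tested on simulated data. Fits of the Aco1 line found 64% to 76% of simulated 2-fold changes, and fits of both lines found 98% to 100%. Of the genes called, 1.97% to 7.83% were false. Depths are given with the results, and intervals cover the spread between these mice.

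The 10 genes and the other lists were chosen with earlier results of these data known. Up to 2 higher and 2 lower genes of each other list were named, those with the smallest adjusted p in RNA, and the 5 genes most like the 10. Protein sequences and coding lengths were not used here.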

Additional observations from a re-analysis of the deposited data

Results flagged for a closer look

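The TE of 2 of the genes differed between knockout and control livers in opposite directions, with every knockout liver on the same side of every control liver each time, and was set apart for that reason. For Pdia4 the log2 difference in TE of Aco1-/- against Aco1+/+ was -0.152 at ZT5 and 0.24 at ZT12, and that of Ireb2-/- against Ireb2+/+ at ZT12 was -0.132. None of them passed edgeR's test. Within the Aco1 line the difference between timepoints was tested and gave 0.39 (SE 0.18, edgeR adjusted p = 0.993).

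For Sdf2l1 the log2 difference in TE at ZT12 was -0.694 in the Aco1 line and 0.285 in the Ireb2 line. At ZT5 in the Ireb2 line it was 0.37 (SE 0.21), also with every knockout liver above every control liver, and none of the 3 passed edgeR's test. The differences between the lines were not tested for either gene. Over all genes, the TE of Aco1-/- and Aco1+/+ livers did not overlap for 8.75% at ZT5 and 11.1% at ZT12, and that of Ireb2-/- and Ireb2+/+ livers for 11.9% at ZT5 and 9.72% at ZT12. Of the 10 genes, 1, 2, 3 and 2 did not overlap in these comparisons, and the 3 were Sdf2l1, higher in knockouts, and Hsp90b1 and Creld2, lower.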

How the results depend on the processing

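The averaged comparison called 6 of 10 genes in RNA and 5 in RPFs, and 5 to 6 in each with any mouse left out. Counts within a genotype moved more. RNA calls in Aco1-/- went from 1 to 2 with all count columns, DESeq2 or only the mice compared, and to 4 with the replicate block. RNA calls in Aco1+/+ went from 1 to 2 without a filter, 4 with only the mice compared and 5 with the block. RNA calls in Ireb2+/+ went from 0 to 3 with all columns and 1 with DESeq2. RPF calls in Aco1+/+ went from 2 to 4 with DESeq2 or the block and 5 with only the mice compared, those in Ireb2-/- from 1 to 2 with only the mice compared, and that in Ireb2+/+ from 1 to 0 with DESeq2, the first run, only the mice compared or TMM. With each mouse left out, RNA calls ran from 0 to 3 in Aco1-/-, 1 to 3 in Aco1+/+, 0 to 2 in Ireb2-/- and 0 to 1 in Ireb2+/+. RPF calls ran from 1 to 4, 0 to 4, 0 to 1 and 0 to 2, and TE calls in Aco1-/- from 0 to 1. For most of these fits the share of all genes called is not given here. A count that moved is therefore not a result about these genes. The cause was not tested.

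Single mice ended within-genotype calls. Dnajb9 RNA in Aco1-/- was lost without any ZT5 replicate or ZT12 replicate 1 or 2 (edgeR adjusted p 0.0547 to 0.103), and in Ireb2-/- without ZT5 replicate 2 or ZT12 replicate 1. Its RPF call was lost without replicate 1 of ZT5 or ZT12 in Aco1-/-, ZT5 replicate 2 or ZT12 replicate 1 in Aco1+/+, and ZT5 replicate 1 or 2 or any ZT12 replicate in Ireb2-/-. The Calr RPF call in Aco1+/+ was lost without replicate 1 or 2 of either timepoint. That of Hsp90b1 in Aco1-/- was lost without ZT5 replicate 1 or 2 or ZT12 replicate 2 or 3. That of Pdia4 in Ireb2+/+ was lost without any of 9 mice of the line. Hyou1 passed in RPFs without Aco1-/- ZT5 replicate 3 or ZT12 replicate 1, or Ireb2-/- ZT5 replicate 3.

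Some averaged changes that were not called turned in sign. With the first run alone, Calr TE was 0.015, Creld2 TE -0.043, Hspa5 RPF 0.021 and Pdia4 TE 0.0069. With all columns, Creld2 TE was -0.058 and Pdia4 TE 0.011. Hspa5 RPF was 0.026 with DESeq2 and 0.016 with TMM. Without the 2 livers with acinar markers, an alternative added after seeing the data, Hspa5 RPF was 0.0084 and Creld2 TE -0.0026. With each mouse left out, the TE change ran from -0.066 to 0.071 for Calr, -0.054 to 0.080 for Creld2, -0.037 to 0.055 for Hsp90b1 and -0.032 to 0.0090 for Pdia4. The RPF change ran from -0.30 to 0.033 for Creld2, -0.081 to 0.070 for Hspa5 and -0.17 to 0.0023 for Manf, and the RNA change from -0.15 to 0.024 for Hspa5 and -0.10 to 0.16 for Manf.

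DESeq2 called 7 cytosolic heat shock genes higher in RNA, against 4. The averaged TE comparison called 52 of all genes, and from 8 with limma to 218 with all count columns. Replicate numbers were not taken to pair the mice. Of 48 same-number correlations of deviations, 6 were over 0.1 (range -0.134 to 0.258). Correlations between different numbers are not given beside them, so whether the numbers pair the mice was not settled. All count columns include the column whose content is not identified. Sdf2l1, Dnajb9, Manf and Creld2 had the fewest RNA counts of the 10 genes, and how depth bears on their errors was not tested.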
